A study of Mus musculus with 11 samples.

Results

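The genes described here encode the proteins of the mitochondrial ribosome, and they were taken from a gene count table as every gene whose name starts with Mrpl or Mrps followed by a digit. After counts were summed by gene name, 78 of the 24849 genes in the table met this rule, 49 with an Mrpl name and 29 with an Mrps name, and every one of them reached the minimum of 10 counts in at least 3 libraries. The RNA came from AML12 cells, a mouse hepatocyte line, and from a knockout (KO) and a knock-in (KI) derivative, and the study compared the lines to learn what the endoplasmic reticulum protein TXNDC5 does in hepatic cells. There were 4 KO, 3 wild-type (WT) and 4 KI libraries of polyadenylated RNA, and the WT library titled 5-6 was taken as 1 library. The KO cells had been transfected with CRISPR/Cas9 and homology-directed repair plasmids against Txndc5 and are labelled "TXNDC5 Knockdown" in the genotype field. The KI cells are described as overexpressing TXNDC5 from the ROSA26 locus, whereas the WT cells were the unedited parent line. How many clones were sequenced is not given in the sources used here, so the effect of the edit and the difference between cell lines cannot be told apart. Nothing in the labels says that libraries of a group came from separate cultures, so the p-values measure only the spread between these libraries, which may be technical.

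Mitochondria carry their own ribosome, which translates the few messenger RNAs of mitochondrial DNA into core subunits of the respiratory chain. Its ribosomal RNAs are made inside the organelle, but all of its proteins are encoded in the nucleus, translated in the cytosol and imported. The large subunit forms peptide bonds and feeds the new chain into the inner membrane, and the small subunit binds and decodes the messenger RNA. Some of these proteins have counterparts in bacterial ribosomes and others are found only in mitochondria. In hepatocytes, which are rich in mitochondria, the respiratory chain supplies the energy for synthesis and detoxification.

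The libraries held between 29840366 and 38422243 counts, and the members took 0.308 to 0.413% of them. Txndc5 itself had 287 to 430 counts in the KO libraries, 3299 to 4046 in the WT libraries and 5344 to 6723 in the KI libraries, so the targeted gene was lowest in every library labelled KO. In scaled levels the KI libraries, at 158 to 180 CPM (counts scaled to a common library size) of Txndc5, lay above the WT libraries at 138 to 147 CPM. The log2 fold change of 0.24 did not pass the test (adjusted p = 0.136). With library totals as the scale it was 0.57 (adjusted p = 0.00623), beside a median of 0.30 over all genes. Summed hepatocyte markers, in the same unit, reached 5067 to 10320 over all libraries, against at most 1.65 CPM for fibroblast or stellate cell markers, 9.56 CPM for macrophage markers and 0.425 CPM for endothelial markers. Apoa2, a hepatocyte marker, was listed at 0 in all WT and KI libraries. Hepatocyte marker sums ran from 8338 to 10320 CPM in KO, from 5067 to 6879 CPM in WT and from 7218 to 8724 CPM in KI. The markers did not move together, since of 9 tested 5 were higher and 2 lower in KO than in WT, and 3 higher and 3 lower in KI. These are 55.6% and 22.2% in KO, and 33.3% each way in KI. Over all genes the shares were 26.7% and 28.4% in KO, and 21.2% and 21.0% in KI. The markers' median log2 fold changes were 0.66 and -0.47. The keratins Krt8 and Krt18 averaged 4357 and 1853 CPM in KI against 2839 and 1024 CPM in WT, whereas Alb, the gene of serum albumin, averaged 246 CPM in KI, 513 CPM in WT and 4115 CPM in KO. The part of these markers in the results below was not tested. In bulk RNA, fewer cells of a type and less RNA per cell cannot be told apart. The library WT 8 stood apart from the other WT libraries, being the lowest of the WT libraries for 51 of the 78 members (65.4%) and the highest for 19 (24.4%). Of all 13359 genes tested in KO against WT it was the lowest for 5081 and the highest for 5593 (41.9%). The median coefficient of variation of the members was 22.1% in WT, against 10.6% in KO and 11.2% in KI, beside 20.8%, 12.1% and 12.9% over all genes.

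All members were well measured, with between 193 and 6753 counts per gene and library. Levels per length, in CPM per kilobase of annotated exons averaged over groups, differed widely between members. Mrpl12, the stalk protein of the large subunit that contacts translation factors, stood highest at 112.7 CPM per kilobase. Mrpl53 followed with 64.7 CPM per kilobase and Mrps21, a small subunit protein, with 61.9 CPM per kilobase. The lowest were Mrps10 at 2.06, Mrps35 at 3.23 and Mrps30 at 4.28 CPM per kilobase. Within groups the order of these values was less certain than the gap between its ends, since Mrpl53 measured 52.4 ± 8.41 CPM per kilobase (SD, n = 4) in KO and Mrps21 51.2 ± 7.23 CPM per kilobase (SD, n = 4), a difference smaller than their spread. Mrpl53 shares 88% of its exon bases with Gm42688 on the same strand, so its reads and those of that gene could have been divided in either way. When the longest protein-coding transcript set the length instead, Mrpl12 ranked 2, Mrps21 ranked 5, Mrpl53 ranked 8 and Mrps10 moved from rank 78 to rank 56. Mrpl33 moved from rank 46 to rank 1, so which member stood highest depended on the length used.

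The comparison of KO with WT asked which transcripts differ in cells that lack TXNDC5. The mitochondrial ribosomal protein genes did not move as a block, since 17 of the 78 were higher in KO, 22 were lower and 39 did not pass the threshold of 0.05 on the adjusted p. Of all 13359 genes tested, 26.7% were higher and 28.4% were lower, so the members' 21.8% and 28.2% lay below and close to the background. Their fitted log2 fold changes ran from -1.30 for Mrpl24 to 1.47 for Mrps6, with a median of -0.07 beside -0.03 over all genes. With library totals in place of TMM scaling (trimmed mean of M-values) the median was 0.36, beside 0.38 over all genes. On that scale 33 members were higher and 10 lower, so the direction of the family as a whole depended on the scaling. Single-gene values given with library totals carry this shift of all genes, which was 0.30 in KI against WT. Among 51 large subunit genes 6 were higher and 17 lower, with a median of -0.12, and among 26 small subunit genes 11 were higher and 5 lower, with a median of 0.04.

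**Figure D1:**
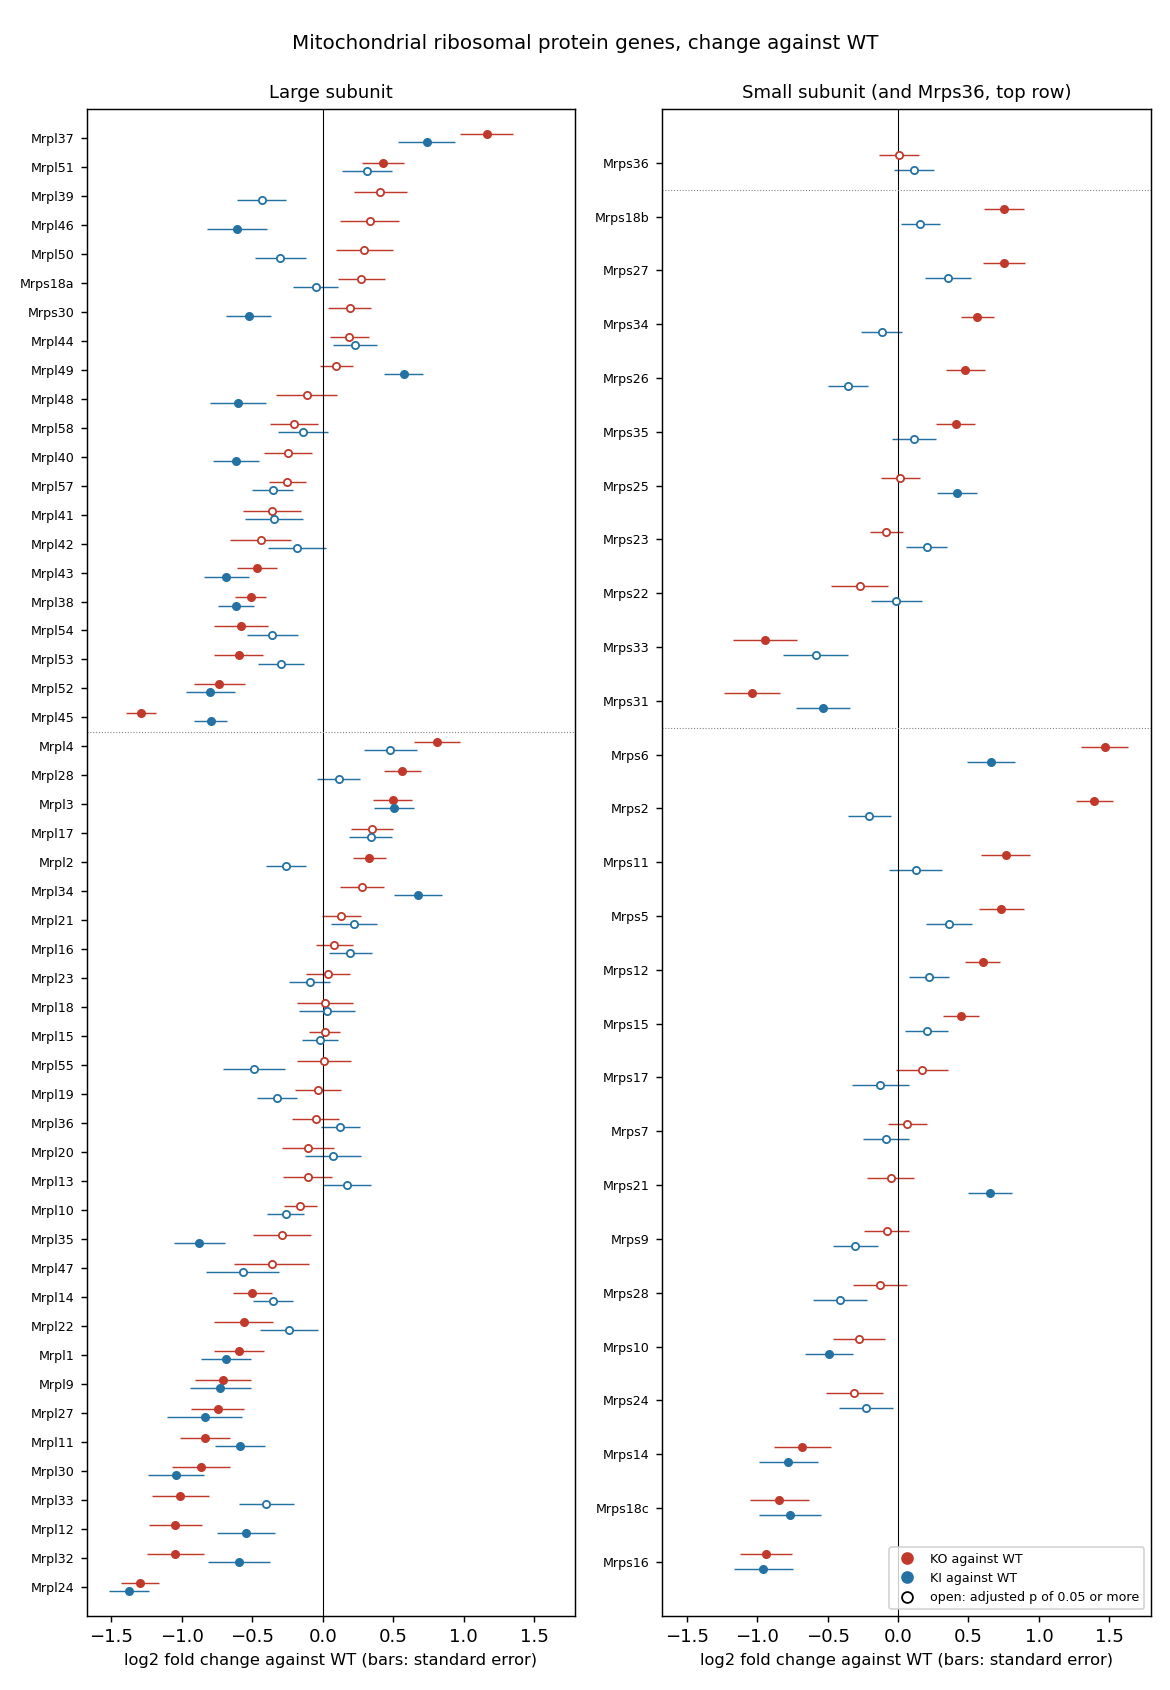
Fitted log2 fold change against WT of each of the 78 members, with its standard error, for KO (red) and KI (blue), for large subunit genes on the left and small subunit genes and Mrps36 on the right. Dotted lines part genes without from genes with a bacterial counterpart, and filled points passed an adjusted p of 0.05. The KO values run from -1.30 for Mrpl24 to 1.47 for Mrps6.

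Among small subunit genes, the rise was steepest for Mrps6 and Mrps2, both counterparts of bacterial proteins. Mrps6 measured 43.6, 39.7, 39.7 and 36.7 CPM in the KO libraries and 13.3, 11.3 and 18.0 CPM in the WT libraries. Every KO library lay above every WT library, which gave 1.47 on the log2 scale (standard error 0.17, adjusted p = 3.73e-05). The Mrps6 exons share 10.4% of their bases with Slc5a3 and 19.9% with Gm49711 on the same strand. Mrps2 measured 35.1, 32.3, 32.0 and 35.8 CPM in KO and 12.8, 11.3 and 13.9 CPM in WT. This was a 2.62-fold difference without overlap (log2 fold change 1.39, standard error 0.13, adjusted p = 1.11e-05). Mrps11 was higher as well, at 81.9 to 93.2 CPM in KO against 36.8 to 65.7 CPM in WT (log2 fold change 0.77, adjusted p = 0.00331).

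Several other small subunit genes rose in KO. Mrps5, which lies near the path of the messenger RNA, measured 53.5 to 58.5 CPM in KO and 24.8 to 39.3 CPM in WT (log2 fold change 0.73, adjusted p = 0.00229). Mrps12, a protein of the decoding centre, measured 37.9 to 41.5 CPM against 23.5 to 27.8 CPM (log2 fold change 0.60, adjusted p = 0.00188). Mrps34, a mitochondria-specific protein needed to keep the small subunit RNA stable, measured 50.7 to 59.1 CPM against 35.8 to 38.1 CPM (log2 fold change 0.56, adjusted p = 0.00184). In none of these 3 genes did a KO library overlap a WT library. Mrps34 shares 63.4% of its exon bases with Mapk8ip3 on the opposite strand and 37% with Nme3 on the same strand, and the library protocol describes no step that marks the strand, so reads of these genes cannot be told apart. Mrps7, a protein close to the messenger RNA exit, had a log2 fold change of 0.07 (adjusted p = 0.703), and Mrps22, a mitochondria-specific protein, one of -0.27 (adjusted p = 0.277).

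The small subunit genes that fell included Mrps31 and Mrps16. Mrps31, found only in mitochondria, measured 30.9, 22.4, 22.5 and 20.3 CPM in KO and 53.9, 57.2 and 34.7 CPM in WT. Its groups did not overlap (log2 fold change -1.04, standard error 0.20, adjusted p = 0.00119), although WT 8 lay well below the other WT libraries. Mrps16, with a bacterial counterpart, measured 20.8 to 25.6 CPM in KO and 34.3 to 61.1 CPM in WT (log2 fold change -0.94, adjusted p = 0.00135).

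In the large subunit the falls outnumbered the rises. Mrpl24, whose bacterial counterpart starts the assembly of the large subunit, measured 31.7, 27.3, 31.1 and 27.2 CPM in KO against 83.0, 68.7 and 61.6 CPM in WT. Mrpl45, which anchors the ribosome to the inner membrane next to the exit of the peptide tunnel, measured 41.6, 37.7, 38.7 and 38.3 CPM in KO against 96.7, 92.8 and 93.2 CPM in WT. Both genes had their highest KO library below their lowest WT library, with fitted KO levels 0.407 and 0.410 times those of WT. For Mrpl24 this is -1.30 on the log2 scale (standard error 0.13, adjusted p = 1.95e-05). For Mrpl45 it is -1.29 (standard error 0.11, adjusted p = 3.77e-06), and leaving out any library moved it no further than between -1.32 and -1.25. Mrpl24 shares 26.3% of its exon bases with Rrnad1 on the opposite strand.

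Mrpl12 fell from 292, 258 and 164 CPM in WT to 140, 116, 110 and 102 CPM in KO. WT 8 was again the lowest WT library, yet it stayed above every KO library (log2 fold change -1.05, standard error 0.19, adjusted p = 0.000839). Mrpl32, a bacterial counterpart that is trimmed after import before it joins the subunit, measured 29.2 to 37.8 CPM in KO and 44.8 to 82.5 CPM in WT (log2 fold change -1.05, adjusted p = 0.00126). Mrpl33 measured 51.3 to 77.3 CPM in KO and 84.3 to 147 CPM in WT (log2 fold change -1.01, adjusted p = 0.00152). Together with Mrpl24, Mrpl45 and Mrps31, these genes made up the 6 members called with a fall of more than 1 on the log2 scale. By the same cut 3 members rose, and the share of all genes past it was not computed. The count depended on the scaling. With library totals the log2 fold changes of the 6 genes ran from -0.875 for Mrpl45 to -0.570 for Mrpl33, beside a median of 0.38 over all genes. Mrpl11, a neighbour of the stalk, also fell, from 66.4 to 109 CPM in WT to 40.4 to 59.3 CPM in KO (log2 fold change -0.84, adjusted p = 0.00216), whereas Mrpl10, the base of the stalk, did not pass the threshold (log2 fold change -0.16, adjusted p = 0.267).

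Few large subunit genes were higher in KO. Mrpl37, found only in mitochondria, measured 35.0, 37.7, 36.4 and 33.7 CPM in KO against 12.3, 13.3 and 21.4 CPM in WT. The groups did not overlap and WT 8 was the highest WT library (log2 fold change 1.16, standard error 0.19, adjusted p = 0.000379). Mrpl4, which lines the peptide tunnel, measured 34.2 to 38.9 CPM in KO and 15.3 to 24.6 CPM in WT (log2 fold change 0.81, adjusted p = 0.00149). Mrpl3 rose less, from 26.1 to 34.1 CPM in WT to 37.4 to 43.0 CPM in KO (log2 fold change 0.50, adjusted p = 0.00953). Mrpl2, next to the site of peptide bond formation, was called at the threshold (log2 fold change 0.33, adjusted p = 0.0357), and the call was lost without any one KO library or without WT 5-6, with adjusted p-values of 0.0924, 0.0834, 0.0625 and 0.0664 without KO 5, KO 6, KO 7 and KO 8 and 0.0637 without WT 5-6. Mrpl58, which frees peptides from stalled ribosomes, Mrpl44 and Mrpl41 did not pass, with log2 fold changes of -0.21, 0.19 and -0.36 and adjusted p-values of 0.331, 0.262 and 0.158.

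**Figure D2:**
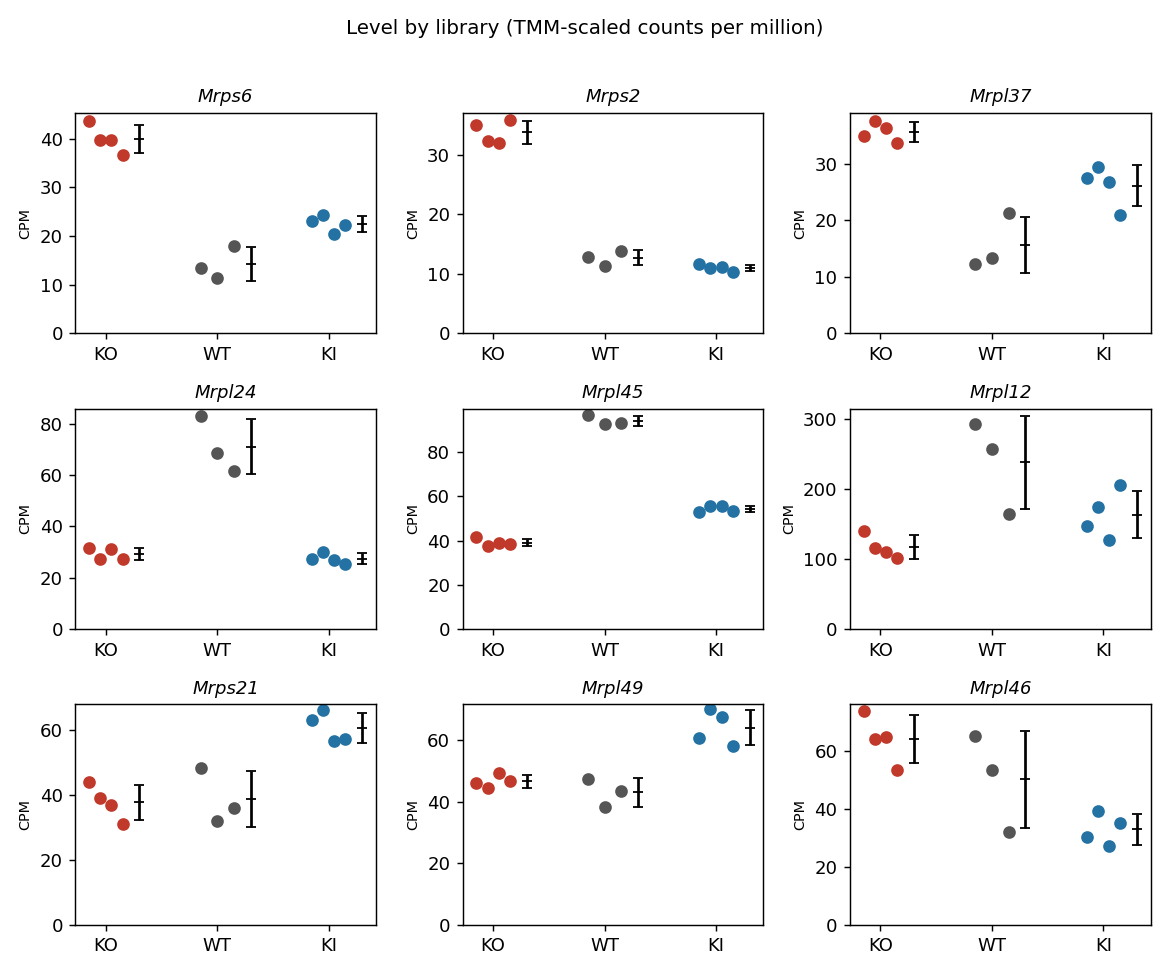
Level of 9 members in each library, in TMM-scaled CPM on axes from 0, with the mean and SD of each group drawn beside the points. Mrps6, Mrps2 and Mrpl37 lie higher in all KO than in all WT libraries, Mrpl24, Mrpl45 and Mrpl12 lie lower, Mrps21 and Mrpl49 are highest in KI, and Mrpl46 separates KO from KI.

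Promoter sequences are shown for Mrps6, Mrps2, Mrpl24 and Mrpl45, which changed steeply in KO, and for Mrps21, which was higher in KI. Other members with large changes, such as Mrpl37 and Mrpl12, were left out. The sequences shown are set beside the motifs of factors known to act on mitochondrial genes. They come from the RefSeq promoter table for build GRCm38.p6, run from 250 bases before to 50 bases after the annotated start, and carry in capitals the matches on either strand to the motifs searched. For the ETS family, which includes GABPA, the letters were CCGGAAG. For the factor YY1 they were ATGGCGG, and for the core of the site of NRF1 they were CGCATGC. The SP1 letters were GGGCGG, the E-box letters were CACGTG and the TATA box letters were TATAAA, and no motif searched lies inside another. Mrps6 (chr16:92058086-92058385, plus strand) held 4 SP1 matches, Mrps2 (chr2:28467816-28468115, plus strand) a YY1 match and Mrps21 (chr3:95871465-95871764, minus strand) an ETS match. Mrpl24 (chr3:87919294-87919593, plus strand) and Mrpl45 (chr11:97315466-97315765, plus strand) held none of these letters in the window.
Mrps6: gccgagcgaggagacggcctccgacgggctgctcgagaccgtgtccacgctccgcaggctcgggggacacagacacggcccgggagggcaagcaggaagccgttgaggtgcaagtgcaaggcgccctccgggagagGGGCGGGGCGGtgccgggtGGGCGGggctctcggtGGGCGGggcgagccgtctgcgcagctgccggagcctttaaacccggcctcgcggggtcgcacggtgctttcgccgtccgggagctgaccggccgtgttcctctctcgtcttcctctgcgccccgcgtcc
Mrps2: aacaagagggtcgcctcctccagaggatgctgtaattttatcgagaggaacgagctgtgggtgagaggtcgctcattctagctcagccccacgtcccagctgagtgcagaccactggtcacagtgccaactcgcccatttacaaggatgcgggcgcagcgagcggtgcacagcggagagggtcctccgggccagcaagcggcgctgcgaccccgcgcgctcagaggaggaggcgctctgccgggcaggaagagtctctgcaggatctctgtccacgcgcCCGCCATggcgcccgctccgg
Mrps21: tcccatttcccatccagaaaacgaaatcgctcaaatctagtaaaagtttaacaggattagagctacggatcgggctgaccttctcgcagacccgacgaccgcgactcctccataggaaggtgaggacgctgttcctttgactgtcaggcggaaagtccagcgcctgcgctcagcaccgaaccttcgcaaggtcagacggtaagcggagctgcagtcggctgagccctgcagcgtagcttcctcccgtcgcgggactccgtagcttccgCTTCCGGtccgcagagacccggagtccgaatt
Mrpl24: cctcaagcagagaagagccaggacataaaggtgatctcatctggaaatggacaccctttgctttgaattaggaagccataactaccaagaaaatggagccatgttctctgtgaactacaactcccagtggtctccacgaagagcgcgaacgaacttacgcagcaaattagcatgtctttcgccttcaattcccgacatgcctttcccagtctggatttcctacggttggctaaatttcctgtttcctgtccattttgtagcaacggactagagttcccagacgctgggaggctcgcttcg
Mrpl45: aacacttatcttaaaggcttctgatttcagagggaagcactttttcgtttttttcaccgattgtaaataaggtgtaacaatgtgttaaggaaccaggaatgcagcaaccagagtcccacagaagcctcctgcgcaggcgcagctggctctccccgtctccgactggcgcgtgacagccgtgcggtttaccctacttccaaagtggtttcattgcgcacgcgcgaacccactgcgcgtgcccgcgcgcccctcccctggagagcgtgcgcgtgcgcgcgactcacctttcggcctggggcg

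Of the 78 members, 69 were matched in that table. CCGGAAG stood in 26 of them, or 37.7%, against 9.93% of all 27025 genes in the table and 20.5% of those tested in KO against WT. ATGGCGG was in 18.8% of members, against 4.69% of all genes and 9.53% of tested genes. CGCATGC was in 11.6% of members, 4.01% of all genes and 7.22% of tested genes. GGGCGG, by contrast, was in 49.3% of members, 38.2% of all genes and 67.9% of tested genes. CACGTG was found in 7.25% of members (8.09% of all genes and 11.7% of tested genes) and TATAAA also in 7.25% (15.7% and 9.13%). The ETS letters were present in 6 of the 14 matched members that were higher in KO and in 9 of the 20 that were lower, and the SP1 letters in 10 of 14 and 8 of 20. Such matches describe the sequence and do not show binding.

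The comparison of KI with WT asked what differs in the knock-in line, where Txndc5 itself was not called higher than in WT. Here 7 members were higher, 22 were lower and 49 did not pass. Over all 13534 genes tested, 21.2% were higher and 21.0% were lower, so the members' 9.0% and 28.2% lay below and above the background. The median log2 fold change was -0.25, beside -0.02 over all genes, and the values ran from -1.38 for Mrpl24 to 0.74 for Mrpl37. With library totals as the scale, 23 members were higher and 6 lower, and the median turned to 0.09, beside 0.30 over all genes. The number of lower members also depended on single libraries, being 9 without WT 7, 12 without WT 5-6, 13 without KI 5 or without KI 7 and 40 without WT 8, and the number of higher members was 3 without WT 7. Large subunit genes accounted for 17 of the falls and 4 of the rises, and small subunit genes for 5 and 3.

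Mrpl24 fell most in KI, to 27.3, 30.1, 27.0 and 25.1 CPM. The WT libraries, given above, all lay higher, a difference of -1.38 on the log2 scale (standard error 0.14, adjusted p = 1.41e-05). Mrpl45 measured 52.8, 55.5, 55.4 and 53.3 CPM, below WT and above KO in every library (log2 fold change against WT -0.80, standard error 0.12, adjusted p = 0.000203). Mrpl30, with a bacterial counterpart, measured 82.1, 88.8, 72.0 and 85.8 CPM in KI and 224, 173 and 110 CPM in WT. The WT values spread widely but did not reach the KI range (log2 fold change -1.04, standard error 0.20, adjusted p = 0.0012). Mrps16 measured 17.7 to 27.2 CPM in KI against 34.3 to 61.1 CPM in WT (log2 fold change -0.95, adjusted p = 0.00282), and Mrpl35 measured 32.0 to 35.4 CPM against 42.5 to 80.0 CPM (log2 fold change -0.87, adjusted p = 0.0023). Mrpl52, found only in mitochondria, measured 33.2 to 38.8 CPM against 44.9 to 79.1 CPM (log2 fold change -0.80, adjusted p = 0.00296).

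Among the members higher in KI was Mrps21, the counterpart of a small bacterial protein at the messenger RNA platform. It measured 63.1, 66.2, 56.7 and 57.4 CPM in KI and 48.4, 31.9 and 35.9 CPM in WT. All KI libraries exceeded all WT libraries (log2 fold change 0.65, standard error 0.16, adjusted p = 0.0051), while in KO against WT the gene had a log2 fold change of -0.05 (adjusted p = 0.808). Mrpl34 measured 28.3 to 36.1 CPM in KI and 15.2 to 23.8 CPM in WT (log2 fold change 0.68, adjusted p = 0.00699). Mrpl49 measured 58.1 to 70.2 CPM in KI and 38.3 to 47.5 CPM in WT (log2 fold change 0.58, adjusted p = 0.00488). Neither gene overlapped between these groups.

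Some KI calls rested on single libraries. Mrps6 measured 23.0, 24.4, 20.4 and 22.2 CPM in KI, all above WT and below KO (log2 fold change against WT 0.66, adjusted p = 0.00848, and 0.0535 without WT 7). Mrpl3 had a log2 fold change of 0.51 (adjusted p = 0.0129, and 0.0693 without WT 7). Mrpl37 measured 21.0 to 29.5 CPM and overlapped WT, since KI 8 lay below WT 8 (log2 fold change 0.74, adjusted p = 0.0112, and 0.0619 without WT 7). WT 7 was the lowest WT library for Mrps6, but WT 8 was for Mrpl3 and WT 5-6 for Mrpl37. Why these calls were lost without WT 7 was not tested. Mrpl12 in KI, at 127 to 205 CPM, overlapped WT (log2 fold change -0.55, adjusted p = 0.0485), and the call was lost in each fit that left out WT 5-6, WT 7, KI 5, KI 6 or KI 7, with adjusted p-values of 0.206, 0.155, 0.124, 0.0799 and 0.129, and with library totals (adjusted p = 0.388). Mrps2 at 10.3 to 11.6 CPM in KI had a log2 fold change against WT of -0.20 (adjusted p = 0.305).

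**Figure D3:**
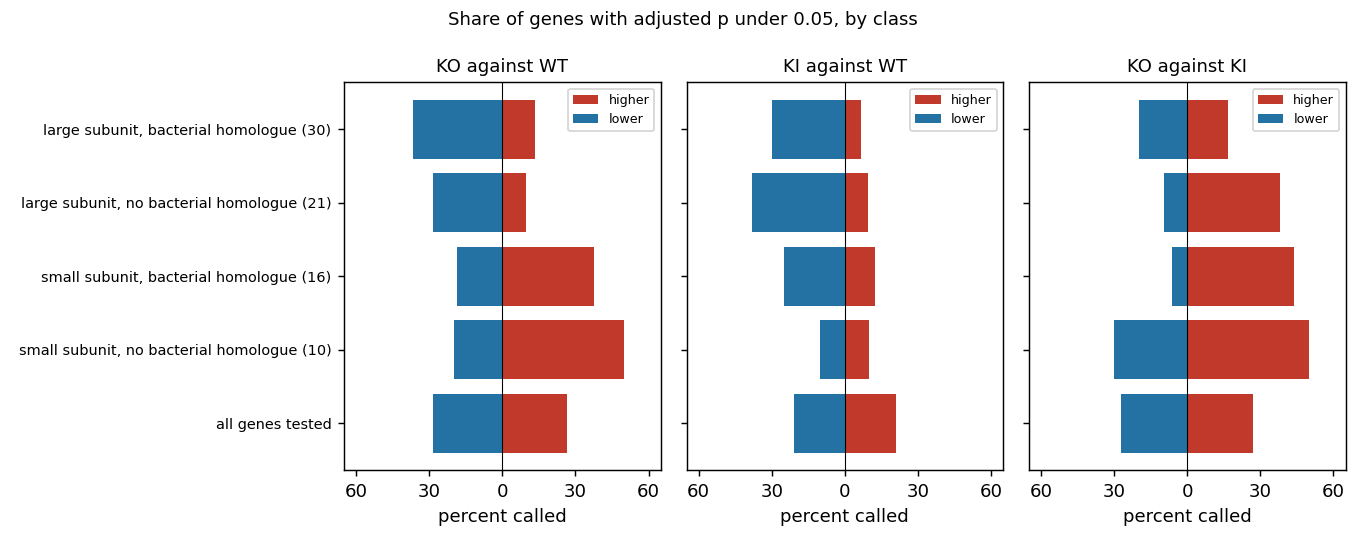
Percent of genes called higher (red, right) or lower (blue, left) at an adjusted p under 0.05, for the 4 structural classes of members, with the number of genes in parentheses, and for all genes tested, in the 3 comparisons. The small subunit classes reach farther to the right than the large subunit classes in KO against WT, where all genes tested stand at 26.7% higher and 28.4% lower.

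Between the edited lines, 25 members were higher in KO than in KI, 12 were lower and 41 did not pass. The background was 27.0% higher and 27.0% lower over 13269 genes tested, and the members' shares were 32.1% and 15.4%. The median log2 fold change of members was 0.12, beside 0.00 over all genes. Since this comparison contains no WT library, the spread of the WT libraries does not enter it. In the large subunit 13 genes were higher and 8 lower, and in the small subunit 12 were higher and 4 lower.

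Mrps2 showed the widest gap. Its KO values of 32.0 to 35.8 CPM stood far above the KI values of 11.6, 10.9, 11.1 and 10.3 CPM, a fitted 3.07-fold difference (log2 fold change 1.62, standard error 0.10, adjusted p = 4.24e-09). Mrpl46, found only in mitochondria, measured 73.7, 64.1, 64.8 and 53.5 CPM in KO and 30.1, 39.1, 27.3 and 35.1 CPM in KI. The lowest KO library exceeded the highest KI library (log2 fold change 0.96, standard error 0.12, adjusted p = 1e-05). Mrpl46 shares 173 exon bases on the opposite strand with Mrps11, itself higher in KO at 81.9 to 93.2 CPM against 48.4 to 61.9 CPM in KI (log2 fold change 0.66, adjusted p = 5.52e-05). Mrpl39 measured 67.2 to 96.2 CPM in KO and 39.3 to 48.8 CPM in KI (log2 fold change 0.87, adjusted p = 1.16e-05). Mrps26 measured 34.6 to 48.9 CPM in KO and at most 25.2 CPM in KI (log2 fold change 0.86, adjusted p = 1.85e-05). For Mrps6 the log2 fold change between the edited lines was 0.83 (adjusted p = 4.12e-06), again without overlap.

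The members lower in KO than in KI were led by Mrps21, at 43.9, 39.2, 37.0 and 31.0 CPM in KO against the KI values above (log2 fold change -0.68, standard error 0.11, adjusted p = 7.58e-05). Mrpl33 measured 82.0 to 112 CPM in KI, above all KO libraries (log2 fold change -0.59, adjusted p = 0.00102). Of the other members whose groups did not overlap, Mrpl45, Mrpl49 and Mrpl34 had log2 fold changes of -0.47, -0.46 and -0.38 and adjusted p-values of 0.000203, 0.000539 and 0.00661. Mrps31, Mrpl12 and Mrpl32 were lower as well, with overlapping libraries (log2 fold changes -0.48, -0.48 and -0.43, adjusted p = 0.0118, 0.0073 and 0.0172). The Mrpl32 call was lost without KO 6, KO 8 or KI 8 (adjusted p = 0.052, 0.0506 and 0.0526). Mrpl24, low in both edited lines, did not pass between them (log2 fold change 0.10, adjusted p = 0.407).

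The balance between the subunits was read as the counts on the 26 small subunit genes per count on the 51 large subunit genes of the same library, a ratio that no scaling between libraries can change. It was 0.427 ± 0.0130 (SD, n = 4) in KO, 0.389 ± 0.0114 (SD, n = 4) in KI and 0.345 ± 0.0137 (SD, n = 3) in WT. The KO libraries ran from 0.416 to 0.446, the KI libraries from 0.374 to 0.399 and the WT libraries from 0.336 to 0.361, so the groups did not overlap. The order KO, KI, WT also held for the mean log2 level of small minus large subunit genes, which was -0.17 in KO, -0.30 in KI and -0.46 in WT. Without the abundant genes Mrpl12, Mrpl30 and Mrpl50 the ratio was 0.498 in KO, 0.453 in KI and 0.417 in WT. The ratio was examined after the values of the members had been seen and carries no test. It leaves out the ribosomal proteins with other names, among them Dap3, Ptcd3 and Chchd1 of the small subunit. Against WT these had log2 fold changes of -0.43, 0.18 and -1.32 in KO, and of -0.76, 0.23 and -0.95 in KI. The ratio with these genes counted in was not computed, so it describes only the genes chosen by name. The summed level of all members overlapped between the groups, at 3194 to 3945 CPM in KO, 3255 to 4697 CPM in WT and 3031 to 3573 CPM in KI.

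**Figure D4:**
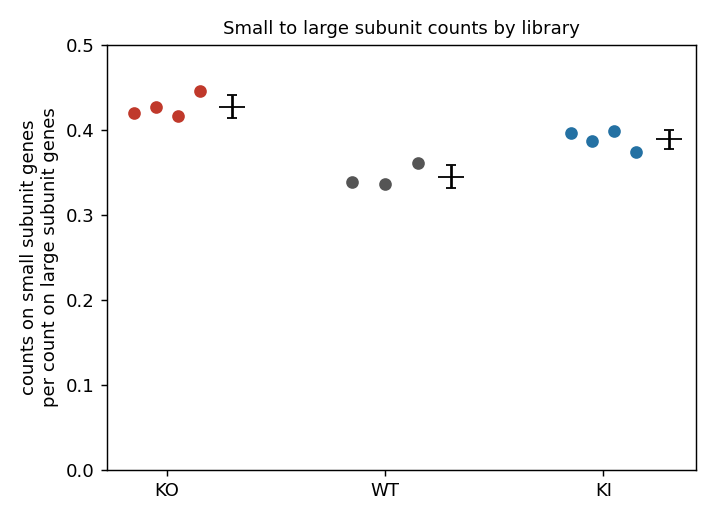
Counts on the 26 small subunit genes per count on the 51 large subunit genes in each library, with the mean and SD of the group beside the points, on an axis from 0. KO lies at 0.416 to 0.446, KI at 0.374 to 0.399 and WT at 0.336 to 0.361.

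The 3 genes named Mrps18 code for related proteins that sit in different places, Mrps18a in the large subunit and Mrps18b and Mrps18c in separate sites of the small subunit. In KO against WT, Mrps18b was higher (39.6 to 51.0 CPM against 23.2 to 29.6 CPM, log2 fold change 0.75, adjusted p = 0.000984), whereas Mrps18c was lower (29.1 to 45.9 CPM against 43.9 to 76.9 CPM, log2 fold change -0.84, adjusted p = 0.00554). Mrps18a had a log2 fold change of 0.28 (adjusted p = 0.178). With library totals as the scale Mrps18b stayed higher (log2 fold change 1.15, adjusted p = 0.000388), but the fall of Mrps18c was no longer called (log2 fold change -0.41, adjusted p = 0.075). Mrps18c was lower in KI as well (log2 fold change -0.77, adjusted p = 0.0131, with 0.0557 without WT 5-6, 0.0755 without WT 7 and 0.109 with library totals), while Mrps18b stood at 0.16 (adjusted p = 0.374). Mrps30, which carries a small subunit name but belongs to the large subunit, was lower in KI than in WT, at 19.1 to 22.0 CPM against 24.2 to 37.0 CPM (log2 fold change -0.53, adjusted p = 0.019, with 0.0929 without WT 5-6, 0.063 without KI 5 and 0.403 with library totals). Mrps36, now known as a subunit of the 2-oxoglutarate dehydrogenase complex and not of the ribosome, stayed between 17.1 and 22.0 CPM in all 11 libraries (log2 fold changes 0.01 for KO and 0.11 for KI against WT, adjusted p = 0.977 and 0.546).

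**Figure D5:**
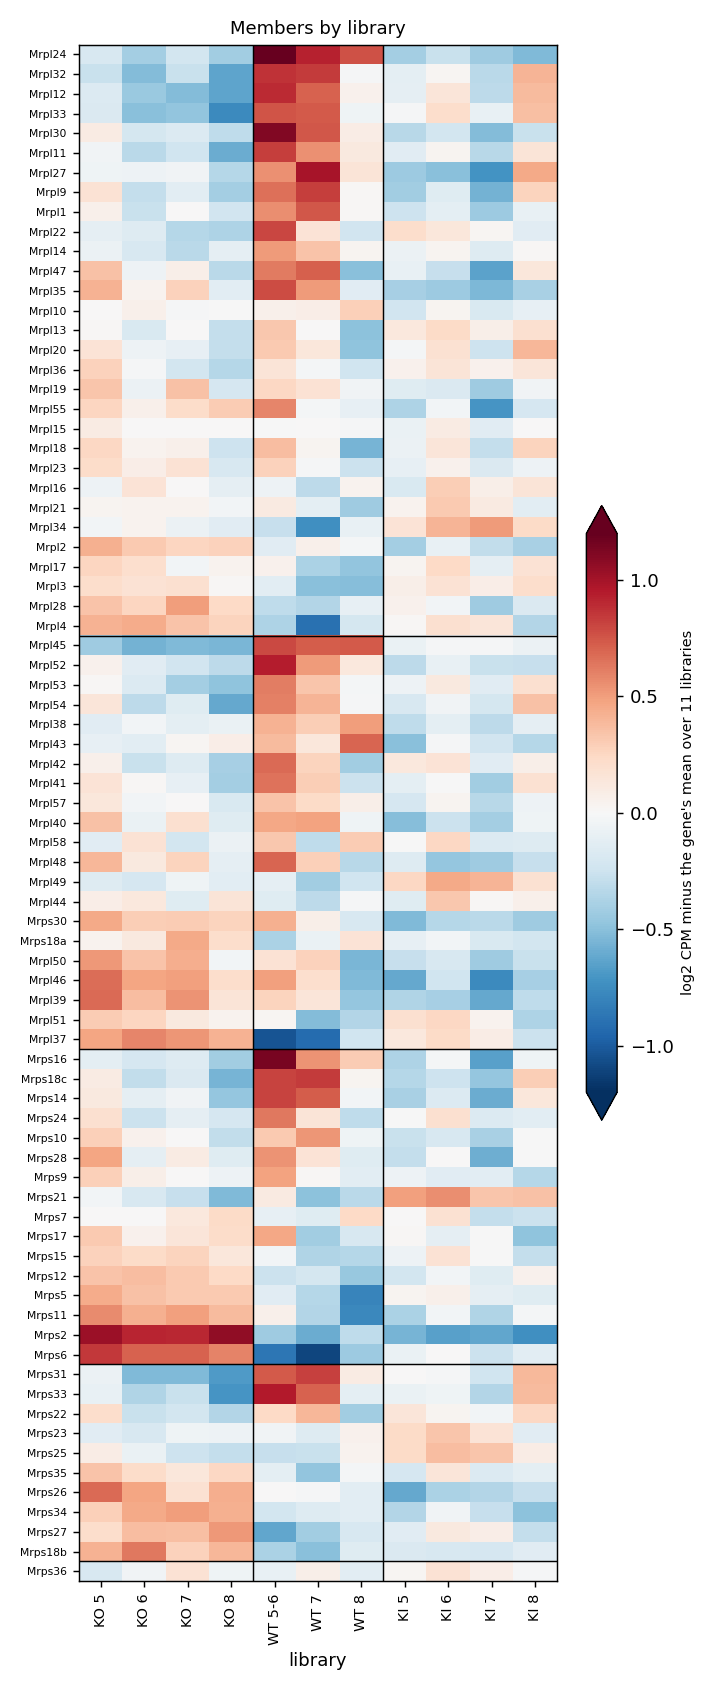
Level of each of the 78 members in each of the 11 libraries, as log2 CPM minus the mean of that gene over the libraries, with colours capped at the ends of the scale and lines between groups and structural classes. Mrpl24 and Mrpl45 are red in all WT libraries, Mrps2 is red in KO only, and many other rows are paler in WT 8 than in WT 5-6 and WT 7.

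For 6 members the table held more than 1 entry, which were summed. Among the 3 entries of Mrps18b the log2 fold changes in KO against WT were 0.58, 0.57 and 1.02, with adjusted p-values of 0.069, 0.0654 and 0.00591. In Mrpl40 the entry with the fall in KI had a log2 fold change of -1.01 (adjusted p = 0.00463) and the other 0.10 (adjusted p = 0.9), against -0.62 (adjusted p = 0.00959, with 0.0558 without WT 7 and 0.174 with library totals) for the sum. Counts were divided between entries unevenly within a group. The Mrpl40 entries held 1702 and 1611 counts in KO 5 but 2543 and 229 in KO 7, and the Mrps18b entries held 345, 340 and 1191 in KO 8. Whether the entries mark separate transcripts was not tested. The entries of Mrps10 had log2 fold changes of 0.87 and -0.38 in KO against WT (adjusted p = 0.378 and 0.114). In Mrpl22 the fall in KO, with a log2 fold change of -0.56 for the sum (adjusted p = 0.038), shrank to -0.22 (adjusted p = 0.271) without WT 5-6 and was not called without KO 6, KO 7, KO 8 or WT 7 (adjusted p = 0.0629, 0.0909, 0.0844 and 0.0739), nor with library totals (adjusted p = 0.599). For Mrps35 the sum stood at 0.41 (adjusted p = 0.0264), and for Mrps23 at -0.08 (adjusted p = 0.566). The Mrps35 call was lost without KO 5, KO 6, KO 8 or WT 7 (adjusted p = 0.0659, 0.0603, 0.0596 and 0.0988).

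The members lie on 17 chromosomes by their names in the GENCODE vM21 annotation, and the median change over all genes differed between chromosomes. Counts of called members stand beside 26.7% higher and 28.4% lower over all genes in KO against WT. In KO against KI 27.0% of all genes were higher. Chromosome 11 held 11 members, of which 5 were lower in KO than in WT and the other 6 were not called, with a median log2 fold change of -0.31 beside -0.34 over all 1009 genes tested there. On chromosome 7 the median of 6 members, Mrps11, Mrps12 and Mrpl46 among them, was 0.34 beside 0.53 over 932 genes. On chromosome 16, home of Mrps6, Mrpl39 and Mrpl40, it was 0.41 beside 0.49 over 373 genes. Elsewhere the 2 medians lay further apart. On chromosome 5, 3 of 4 members fell and their median was -0.72 beside 0.01 over 767 genes. On chromosome 9, 2 of 3 rose and the median was 0.50 beside -0.04 over 670 genes. So few members per chromosome do not show a change particular to that chromosome. Between KO and KI the members of chromosome 16 had a median of 0.83 beside 0.50 over 374 genes, and those of chromosome 17, of which 5 of 8 were higher in KO, 0.41 beside 0.19 over 598 genes. The part of these chromosome-wide values in the members' results was not tested.

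WT 8 also differed in transcript composition. Across the 78 members, the level in WT 8 relative to the other WT libraries correlated with the G and C content of the transcript (Pearson r = 0.41, Spearman rho = 0.42). Across the 11916 tested genes with an annotated transcript the values were 0.33 and 0.32. With log2 transcript length the values were 0.37 and 0.37 across those genes, and 0.05 and 0.07 across the members. These are descriptions over genes, which share the libraries and are not replicates. For log2 fold changes the members' Spearman rho with G and C content was 0.26 in KO against WT and 0.25 in KI against WT. Over all tested genes with an annotated transcript it was 0.125 and 0.043.

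Some proteins of the mitochondrial ribosome carry other names. Of Dap3, Ptcd3, Chchd1, Aurkaip1 and Gadd45gip1, 3 were lower in KO and 3 in KI, and the median log2 fold change was -0.43 in KO and -0.59 in KI. Over all genes 28.4% were lower in KO and 21.0% in KI. Of the KO calls those of Aurkaip1 and Dap3 were lost without WT 5-6 (adjusted p = 0.187 and 0.147), WT 7, KO 6, KO 7 or KO 8. With library totals they were not called either (log2 fold changes -0.093 and -0.002, adjusted p = 0.639 and 0.99). On that scale all genes had a median of 0.38. The call of Chchd1 was kept in each of these fits. In KI the Aurkaip1 call was lost without WT 5-6, WT 7, KI 5, KI 6 or KI 7 (adjusted p = 0.154, 0.115, 0.0823, 0.0697 and 0.0845) and with library totals (adjusted p = 0.293). Chchd1, a small subunit protein, measured 37.8 to 54.6 CPM in KO against 74.6 to 136 CPM in WT (log2 fold change -1.32, adjusted p = 0.000234). Dap3, which binds GTP in the small subunit, measured 73.8 to 86.4 CPM in KI and 114 to 158 CPM in WT (log2 fold change -0.76, adjusted p = 0.00105). Ptcd3, also of the small subunit, had log2 fold changes of 0.18 and 0.23 (adjusted p = 0.347 and 0.256).

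Genes that build and run the mitochondrial ribosome were examined beside the members, to be read against the 26.7% higher and 28.4% lower of all genes in KO and the 21.2% and 21.0% in KI. Of 26 genes for assembly and ribosomal RNA modification, 6 were higher and 3 lower in KO (median log2 fold change 0.15), and 5 higher and 4 lower in KI (median 0.18), or 23.1% and 11.5% in KO and 19.2% and 15.4% in KI. Nsun4, an RNA methyltransferase of assembly, measured 12.9 to 17.7 CPM in KO against 5.84 to 8.51 CPM in WT (log2 fold change 1.18, adjusted p = 0.000554), and Noa1, an assembly GTPase, had a log2 fold change of 1.17 (adjusted p = 0.000628). Among 13 translation factors 4 were higher and 4 lower in KO (median 0.04), and 4 higher and 5 lower in KI (median 0.03), or 30.8% each way in KO and 30.8% and 38.5% in KI. The elongation factor Gfm1 measured 44.7 to 49.3 CPM in KO and 24.1 to 39.6 CPM in KI against 13.1 to 15.5 CPM in WT (log2 fold changes 1.74 and 1.32, adjusted p = 2.15e-06 and 0.000174). Its partner Tufm rose too (log2 fold changes 1.10 and 0.68, adjusted p = 6.14e-05 and 0.00295), whereas the initiation factor Mtif2 fell in KO (log2 fold change -0.82, adjusted p = 0.000989).

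In mitochondrial transcription and messenger RNA handling, 6 of 17 genes were higher and 3 lower in KO (median log2 fold change 0.23), and 7 were higher in KI with the other 10 not called (median 0.27). These are 35.3% and 17.6% of the list in KO, where all genes stood at 26.7% and 28.4%, and 41.2% higher in KI, where all genes stood at 21.2%. Lrpprc and Slirp, which form a complex that protects mitochondrial messenger RNAs, parted in KO. Lrpprc measured 103 to 114 CPM in KO against at most 51.2 CPM in WT (log2 fold change 1.49, adjusted p = 4.96e-05), and Slirp measured at most 21.5 CPM against 29.7 to 57.7 CPM (log2 fold change -1.35, adjusted p = 0.000342). Polrmt, the mitochondrial RNA polymerase, was higher in both lines (log2 fold changes 1.14 and 0.75, adjusted p = 0.000161 and 0.00562). The messenger RNAs of mitochondrial DNA, which the ribosome translates, were looked up under names such as mt-Nd1 and mt-Co1. Of the 13 names 0 were found, so these messenger RNAs were not analysed here.

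Of 10 nuclear regulators of mitochondrial genes, 4 were higher and 1 was lower in KO (median log2 fold change 0.23), and 3 were higher in KI with the other 7 not called (median 0.36). Over all genes the shares were 26.7% higher and 28.4% lower in KO and 21.2% and 21.0% in KI. Pprc1, a coactivator of the PGC-1 family, measured 28.4 to 48.7 CPM in KO and 33.9 to 41.2 CPM in KI against 13.3 to 19.2 CPM in WT (log2 fold changes 1.23 and 1.16, adjusted p = 0.000548 and 0.000155). Myc was higher in KI than in WT (log2 fold change 0.46, adjusted p = 0.0127) and had a log2 fold change of -0.08 in KO (adjusted p = 0.625), and KO and KI differed directly (log2 fold change -0.51, adjusted p = 0.000481). Of 15 genes used as a gauge of mitochondrial content, 5 were higher and 6 lower in KO (median log2 fold change -0.24), and 4 higher and 2 lower in KI (median 0.02), or 33.3% and 40.0% in KO and 26.7% and 13.3% in KI. Tomm40 and Tomm20, parts of the same import pore complex of the outer membrane, went opposite ways in KO. Tomm40 measured 122 to 140 CPM against 36.8 to 40.8 CPM in WT (log2 fold change 1.72, adjusted p = 1.12e-06), and Tomm20 measured 111 to 146 CPM against 216 to 313 CPM (log2 fold change -1.16, adjusted p = 0.000107).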

How the data were processed

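RNA of 11 AML12 libraries was isolated with oligo(dT) beads, fragmented and sequenced at BGI. The submitters' processing notes name HISAT2, TopHat2, Bowtie2 and StringTie, without their roles; versions, genome build, annotation and strand setting are not given in the sources used here. The deposited table holds whole-number counts per entry and library that the authors made from their reads, unnormalized; its FPKM values had lost their decimal points and its columns of the authors' own fold changes and p-values hold their comparisons, and neither was used. Of 26472 lines, 10 were broken and left out, and 26462 entries, 2960 of them newly assembled, were summed by name to 24849 genes.

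Counts were tested with edgeR 4.0.16 in R 4.3.3 (TMM scaling, filterByExpr, robust quasi-likelihood F test, prior count of 2, Benjamini-Hochberg adjustment over all genes tested, two-sided, call at an adjusted p under 0.05), within the 2 groups of each comparison; the procedure was tested on simulated data. CPM are TMM-scaled. Levels between genes were set per kilobase of GENCODE vM21 exons. Depth was 29840366 to 38422243 counts per library, and PCR reads without molecular identifiers are not independent molecules. Named were, in each comparison, up to 5 called members without overlap between groups with the largest rise and fall, fixed members by role, the 3 highest and lowest per length, members with several entries, and the largest changes of each other list. The members and all gene lists were chosen with earlier results of these data known. Alternatives were library totals, DESeq2 1.42.0 size factors and test, limma 3.58.1 on log2(CPM + 1), no low-count filter, all libraries in 1 fit, a replicate block, leaving out each library, and leaving out the 2 largest newly assembled entries. Replicates of a group differed by more than sampling noise in every pair.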

Additional observations from a re-analysis of the deposited data

Results flagged for a closer look

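Among 154 groups of 4 libraries that were examined, for 74 genes chosen by the naming rule and 3 summed levels of the members in KO and in KI, 2 held a library far from the other 3, where chance would set apart about 1 group in 20, or 7.7 groups. Mtif2 measured 39.3 CPM in KI 8 and 23.0 to 24.6 CPM in the other KI libraries, a gap of 0.901 of the whole range. Polrmt measured 17.7 CPM in KO 5 and 20.6 to 21.1 CPM in the other KO libraries, a gap of 0.868 of the range.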

How the results depend on the processing

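With library totals in place of TMM, KO against WT gave 33 members higher and 10 lower with a median of 0.359. KI against WT gave 23 higher and 6 lower with a median of 0.092. All genes had medians of 0.377 and 0.303. Of the 39 and 29 members called, 27 and 13 kept their call. The 2 largest newly assembled entries held 14.81 to 22.39% of the counts in WT, 6.409 to 8.451% in KO and 7.708 to 12.76% in KI. Leaving out single libraries gave 14 to 21 members higher and 17 to 28 lower in KO against WT (median -0.14 to 0.061), 3 to 9 higher and 9 to 40 lower in KI against WT (median -0.399 to -0.139), and 22 to 26 higher and 8 to 17 lower in KO against KI (median 0.062 to 0.148). In KI against WT the number lower was 12 without WT 5-6, 9 without WT 7, 40 without WT 8, and 13 without KI 5 or KI 7, and the number higher was 3 without WT 7; the cause was not tested, although each such fit has fewer samples. When single libraries were left out, the log2 difference of the small to large subunit ratio was 0.289 to 0.342 for KO against WT. It was 0.154 to 0.206 for KI against WT and 0.116 to 0.148 for KO against KI. Since the groups did not overlap in this ratio, leaving out 1 library could not reverse its direction. These alternatives for the ratio were chosen after seeing the data. A replicate block on the numbers in the titles kept 39 of 39, 23 of 29 and 33 of 37 calls in the 3 comparisons. Same-numbered libraries correlated at -0.383 to 0.503, with the highest value for KO 8 and WT 8. These values cannot settle whether the numbers mark a pairing, and the main test used none. Under the other settings (DESeq2 size factors, DESeq2, limma, no low-count filter, all libraries in 1 fit, the 2 largest newly assembled entries left out) each count of calls stayed within 1.5 times its value, and no called gene named here was called in the opposite direction. The other length planned, from the table itself, was not run, since the table holds none.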
